A study of Mus musculus with 12 samples.

Results

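Fluid leaves the air spaces of the lung because ions are moved across the epithelium and water follows them. Sodium enters the epithelial cell at its air-facing side through the epithelial sodium channel ENaC, built from α, β and γ subunits, and is pumped out at the other side by the Na,K-ATPase. Aquaporins are the water pores of epithelium and capillary endothelium, the channel CFTR lets chloride cross the apical membrane, and the cotransporter NKCC1 loads chloride into the cell from the tissue side. Impaired removal of fluid is a recognized part of acute lung injury.

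The genes described here are 9 of the 55414 in the table, chosen by symbol for these roles: the ENaC subunits Scnn1a (α), Scnn1b (β) and Scnn1g (γ), the Na,K-ATPase β1 subunit Atp1b1, the aquaporins Aqp1, Aqp4 and Aqp5, the chloride channel Cftr, and Slc12a2, which encodes NKCC1. The transcripts were measured by RNA-seq of whole lung from 12 mice, 6 of the control genotype IL-10 B-WT and 6 of the knockout genotype IL-10 B-KO, shortened here to B-WT and B-KO. Every mouse had received lipopolysaccharide (LPS), 50 µg into the nose, and lungs were taken on day 4. The knockouts came from crossing Il10 fl/fl with Mb1-Cre, which removes Il10 in B-lineage cells, on a C57BL/6J background. For the controls the labels name the genotype IL-10 B-WT with no alleles, and age and sex were not stated in the sources used here. No lungs without LPS were analysed, so the values say how the genotypes differed on day 4 and not how LPS moved a gene. In whole lung, fewer cells of a type and less RNA per cell cannot be told apart.

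Values are TPM, a measure of transcript abundance that is normalized for the length of each gene and then to the same total in every library, so levels can be set side by side between genes. Read depth cannot be recovered from TPM and is unknown here, which leaves the variation among the 6 lungs of a genotype as the only measure of error. Cd79a, the gene that Mb1-Cre is driven from, stood at 15.3 to 258.64 TPM in B-WT and at 0 to 5.73 TPM in B-KO. Il10 itself overlapped, at 0 to 0.88 and 0 to 0.58 TPM. B-WT replicate 5 stood apart. Mitochondrially encoded transcripts took 30.5% of its TPM, against 4.63% to 15.8% in the other 11 libraries, its 7 erythroid markers summed to 96332 TPM, and it held the lowest value of the 12 for 64.8% of the 15148 genes tested. Many fold changes and list counts that it moved are given with and without it. A value given once can still have moved without that lung.

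The sequences upstream of 4 of the genes are shown as a description, and no link between them and the TPM values was tested. Scnn1g and Scnn1b are partner subunits whose genes lie next to each other on chromosome 7, on the same strand and 96.6 kb apart, and Atp1b1 and Cftr had the 2 largest fitted log2 fold changes of the 9. RefSeq promoter sequence (build GRCm38.p6) was at hand for 6 of the 9 genes, Scnn1b, Scnn1g, Aqp1, Aqp5, Atp1b1 and Cftr. The 250 bases before the transcription start are printed 5′ to 3′ on the strand of the gene, from chr7:121734229-121734478 (plus strand) for Scnn1g, chr7:121864788-121865037 (plus) for Scnn1b, chr1:164458356-164458605 (minus) for Atp1b1 and chr6:18170437-18170686 (plus) for Cftr. Capitals mark matches, on either strand, to the GC box GGGCGG or the CCAAT box CCAAT.
Scnn1g: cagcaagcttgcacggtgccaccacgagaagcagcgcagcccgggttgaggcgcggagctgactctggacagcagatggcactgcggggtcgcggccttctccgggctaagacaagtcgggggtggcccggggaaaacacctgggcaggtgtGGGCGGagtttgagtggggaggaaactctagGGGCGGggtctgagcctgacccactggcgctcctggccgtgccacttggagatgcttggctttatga
Scnn1b: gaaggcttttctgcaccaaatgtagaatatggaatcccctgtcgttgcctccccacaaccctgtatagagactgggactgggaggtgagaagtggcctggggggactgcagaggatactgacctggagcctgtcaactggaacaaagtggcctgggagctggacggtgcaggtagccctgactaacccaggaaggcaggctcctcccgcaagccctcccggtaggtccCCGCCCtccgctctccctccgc
Atp1b1: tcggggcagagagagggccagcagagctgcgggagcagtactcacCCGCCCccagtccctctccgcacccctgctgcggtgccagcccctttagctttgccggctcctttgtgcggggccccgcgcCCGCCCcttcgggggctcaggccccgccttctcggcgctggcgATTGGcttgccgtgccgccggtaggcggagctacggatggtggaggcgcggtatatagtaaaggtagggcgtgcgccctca
Cftr: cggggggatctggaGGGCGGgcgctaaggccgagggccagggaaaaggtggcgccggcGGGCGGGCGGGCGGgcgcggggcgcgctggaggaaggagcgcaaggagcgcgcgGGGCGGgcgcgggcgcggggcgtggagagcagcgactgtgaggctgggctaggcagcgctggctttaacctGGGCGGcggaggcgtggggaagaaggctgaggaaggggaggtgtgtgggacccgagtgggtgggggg

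The 4 stretches were rich in G and C, at 65.2% for Scnn1g, 60.8% for Scnn1b, 70.4% for Atp1b1 and 76.4% for Cftr, against a median of 52.4% over the 32851 promoters of the table. A GC box was found in all 6 promoters available, with 2 matches in Scnn1g, 1 in Scnn1b, 2 in Atp1b1 and 6 in Cftr, of which 3 overlap each other. The same motif was found in 32.7% of all promoters at this length. Atp1b1 held 1 CCAAT box (33.8% of all promoters), and the E-box CACGTG occurred once in Aqp5 (6.02%). The TATA box TATAAA (12.4% of all promoters) and the glucocorticoid receptor half-site AGAACA (16.1%) had no match in these 6 windows. These matches are descriptions of letters and not sites shown to be used.

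The 9 transcripts spanned a wide range of levels. Aqp1 was the most abundant with a mean of 422 TPM over the 12 lungs, followed by Aqp5 at 258, Atp1b1 at 121, Scnn1a at 102, Scnn1g at 40.6, Scnn1b at 37.6, Slc12a2 at 14.3, Aqp4 at 2.31 and Cftr at 1.30. Aqp5 exceeded Atp1b1, Scnn1a exceeded Scnn1g, Scnn1b exceeded Slc12a2, and Slc12a2 exceeded Aqp4 in all 12 lungs. The remaining neighbours in this order were not separated in every lung: Aqp1 was above Aqp5 in 10 of 12, and Atp1b1 above Scnn1a, Scnn1g above Scnn1b, and Aqp4 above Cftr in 8 of 12 each. All 9 genes passed the filter on low values (1 TPM or more in 6 or more libraries), and Aqp4 and Cftr stood close to it. Cftr reached 1 TPM in all 6 B-KO lungs and in 2 of 6 B-WT lungs, so that it met the filter through the group in which it was higher.

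**Figure D1:**
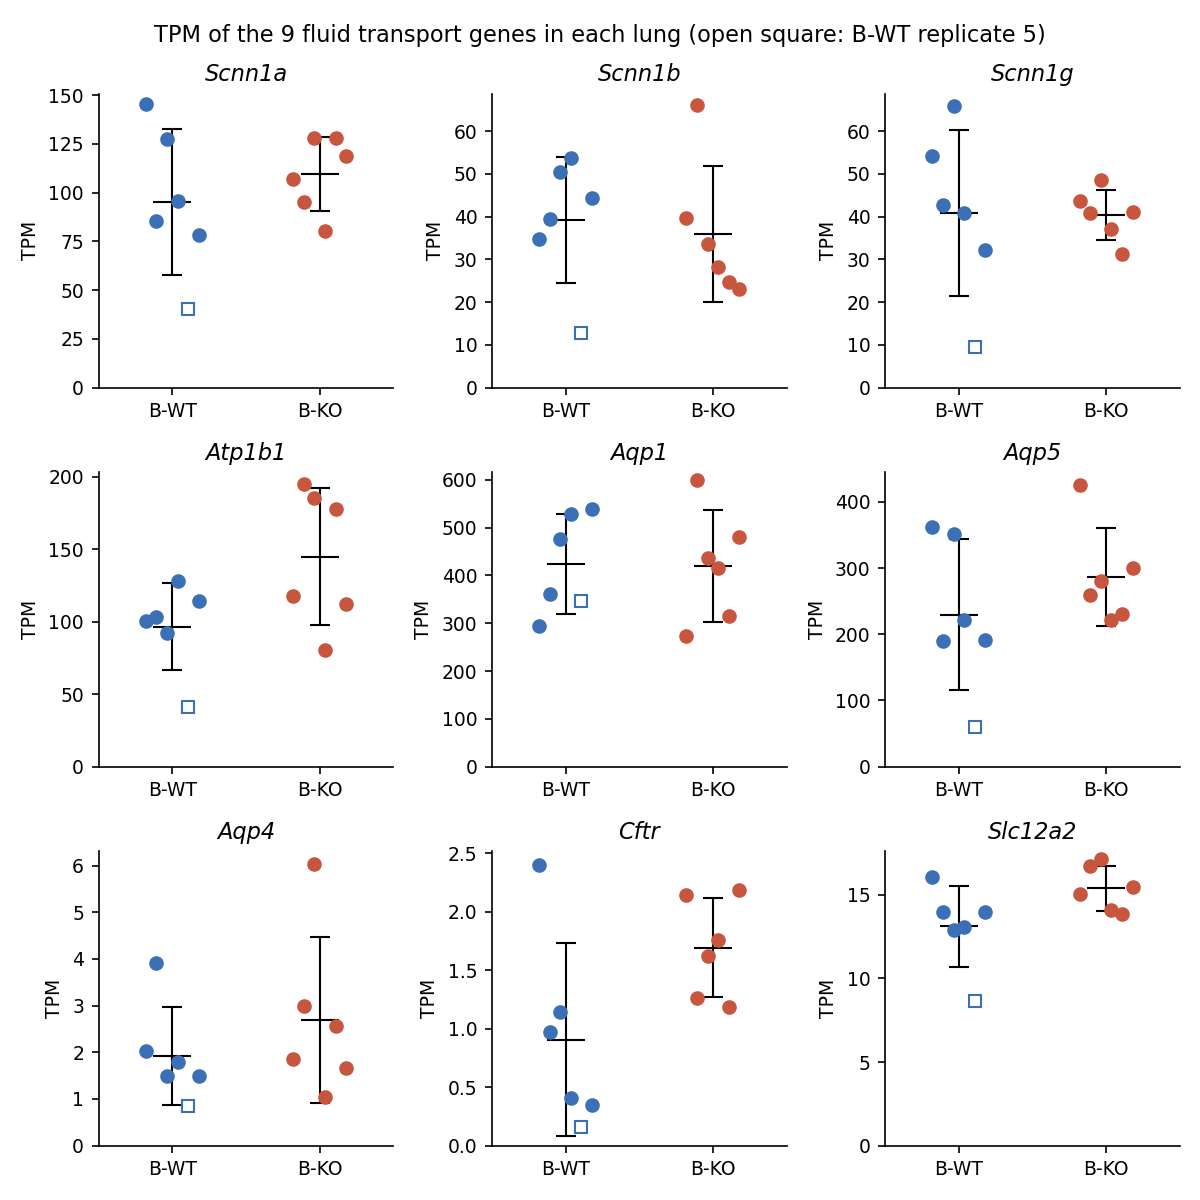
TPM (linear axis from 0) of each of the 9 genes in the 6 B-WT and 6 B-KO lungs; each point is 1 lung, the bars are the mean ± SD, and the open square is B-WT replicate 5. The genotypes overlap for every gene, and the open square is the lowest of the 12 points for 8 of the 9, all but Aqp1.

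None of the 9 differed between genotypes past the threshold of an adjusted p of at most 0.05 and a log2 fold change of 1 or more in either direction, which 75 of the 15148 genes tested (0.495%) met by limma. At an unadjusted p of at most 0.05, 1 of 9 passed, Cftr, higher in B-KO and past the filter only through those lungs. Of all genes tested, 12.5% passed this rule in either direction and 6.83% passed it as higher. The log2 fold change was above 0 for 7 of the 9, as it was for 63.2% of all genes, with a median of 0.28 over the 9 and 0.10 over all genes. No gene of the 9 had groups that did not overlap, a pattern seen in 1.02% of all genes. Without B-WT replicate 5, no gene of the 9 passed at an unadjusted p of at most 0.05, 3 were lower, and the median log2 fold change of the 9 was 0.13. In that setting 11.2% of all genes passed this rule, and the median log2 fold change of all genes also fell, to -0.02.

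**Figure D2:**
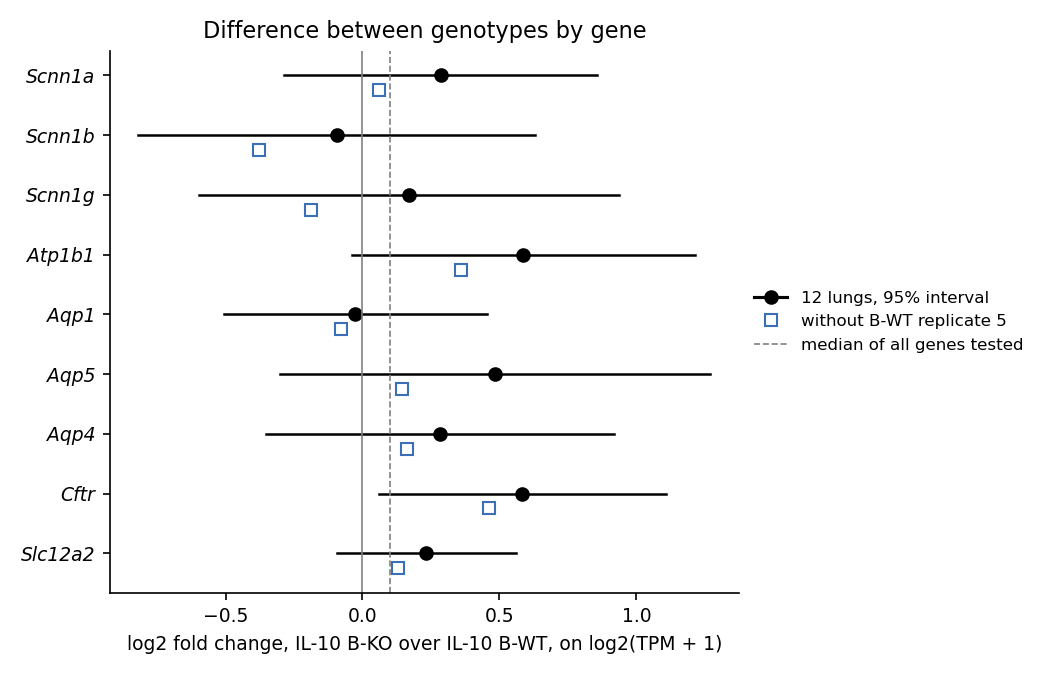
Log2 fold change of B-KO over B-WT on the log2(TPM + 1) scale for each gene. Filled points are the estimates over 12 lungs with their 95% intervals from limma, and open squares the estimates without B-WT replicate 5. The dashed line is the median over all genes tested with 12 lungs, 0.10. Without B-WT replicate 5 that median was -0.02, which is not drawn. Only the interval of Cftr lies wholly above 0, and 9 of 9 open squares lie to the left of the filled points.

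None of the ENaC subunits passed the test, with 95% intervals of the log2 fold change from -0.29 to 0.86 for Scnn1a, -0.82 to 0.63 for Scnn1b and -0.60 to 0.94 for Scnn1g. Scnn1a (ENSMUSG00000030340, chr6:125320659-125344943), whose α subunit forms the pore with the others and is needed for channel activity, ranged from 40.12 to 145.56 TPM with a median of 90.6 in B-WT and from 80.21 to 128.19 with a median of 113 in B-KO. Every B-KO value lay inside the B-WT range. The means were 95.4 ± 37.4 and 110 ± 19.2 TPM (SD, n = 6 each), and the log2 fold change was 0.29 ± 0.27 (SE, limma adjusted p = 0.642). An exact two-sided permutation test gave p = 0.368, and the log2 fold change was 0.06 without B-WT replicate 5.

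Scnn1b (ENSMUSG00000030873, chr7:121865038-121918514) ranged from 12.8 to 53.79 TPM with a median of 42.0 in B-WT and from 23.17 to 66.15 with a median of 30.9 in B-KO. B-KO replicate 2 was above all B-WT lungs, and the other 5 were below the B-WT median. The log2 fold change was -0.09 ± 0.34 (SE, limma adjusted p = 0.914), and -0.38 without B-WT replicate 5 (unadjusted p = 0.150). With array quality weights it was -0.52 (unadjusted p = 0.0345). Scnn1g (ENSMUSG00000000216, chr7:121734479-121768475) ranged from 9.49 to 65.96 TPM with a median of 41.7 in B-WT and from 31.14 to 48.52 with a median of 41.0 in B-KO. Its 6 B-KO lungs again sat inside the B-WT range, which was wider in both directions. The low end of that range was B-WT replicate 5. The next lowest B-WT lung was at 32.19 TPM, above B-KO replicate 5 at 31.14. The log2 fold change of 0.17 ± 0.36 (SE, limma adjusted p = 0.846) turned to -0.19 when B-WT replicate 5 was left out.

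A ratio of 2 genes in the same library does not depend on the total that TPM are scaled to. The proportions of the ENaC subunit transcripts in whole lung were therefore also compared within each library. They do not measure the make-up of the channel protein. Of the summed TPM of the 3 subunits, Scnn1a took 55.1% ± 6.37 in B-WT and 59.0% ± 7.94 in B-KO (SD, n = 6 each). Scnn1b took 22.8% ± 5.27 and 19.2% ± 7.37, and Scnn1g took 22.2% ± 4.16 and 21.8% ± 2.95. In every lung Scnn1a was the largest share, between 47.1% and 69.6%. The geometric mean of Scnn1b to Scnn1a was 0.405 in B-WT and 0.311 in B-KO, a log2 difference of -0.38 ± 0.35 (SE, exact permutation p = 0.288). Scnn1g to Scnn1a was 0.398 and 0.370 (exact permutation p = 0.606) and Scnn1g to Scnn1b was 0.982 and 1.19 (exact permutation p = 0.366). Over the 6 ratios compared in all, adjusted p-values by Benjamini-Hochberg lay between 0.351 and 0.606. B-WT replicate 5 had the smallest Scnn1g share of the 12, 15.2%, with the next lowest at 16.9% in B-KO replicate 5.

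**Figure D3:**
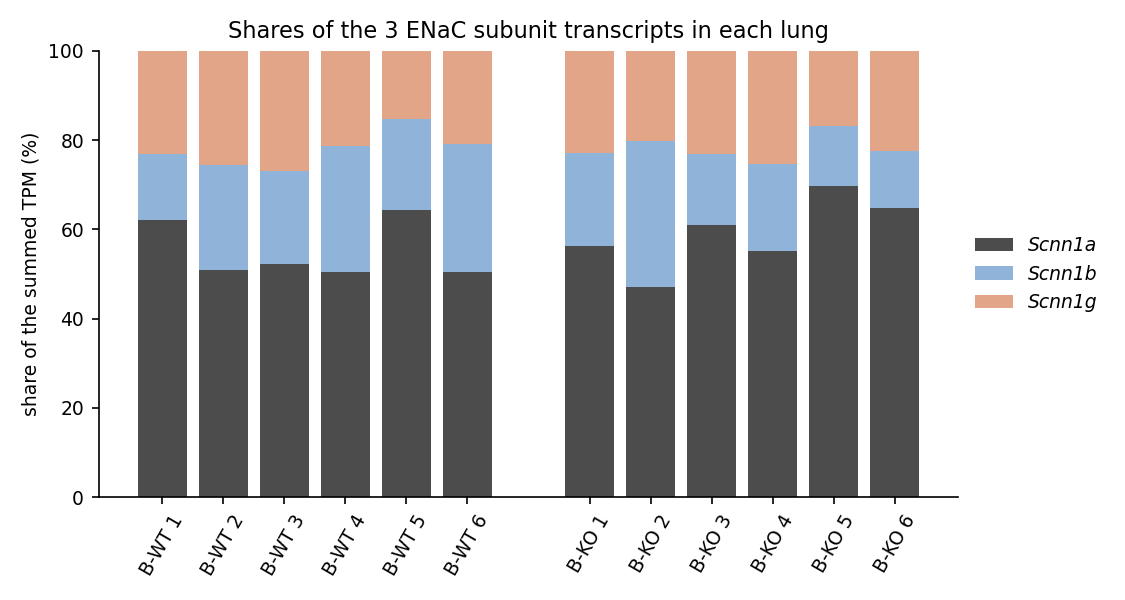
Share in percent of the summed TPM of the ENaC subunit transcripts Scnn1a, Scnn1b and Scnn1g in each of the 12 lungs, as stacked bars that add to 100. The Scnn1a share lies between 47.1% and 69.6% in all lungs, and the genotypes overlap for each subunit.

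The subunits varied together over the 12 lungs only in part. Scnn1a and Scnn1g had r = 0.87 (permutation p = 0.00357, adjusted over the 4 relations computed p = 0.00714) and rho = 0.60 (permutation p = 0.0418, adjusted p = 0.0837). Leaving out the 2 lungs farthest from the median of Scnn1a, B-WT replicates 5 and 1, brought r to 0.45. Within B-WT r was 0.96 (exact permutation p = 0.00833) and within B-KO 0.09 (exact permutation p = 0.874), so the relation did not hold within both genotypes. For Scnn1b and Scnn1g, the genomic neighbours, r was 0.72 (permutation p = 0.0187, adjusted p = 0.0249) with rho = 0.33 (permutation p = 0.294, adjusted p = 0.392), and r fell to 0.38 without B-WT replicate 5 and B-KO replicate 2. Scnn1a and Scnn1b had r = 0.44 (permutation p = 0.15, adjusted p = 0.15) and rho = -0.04 (permutation p = 0.92, adjusted p = 0.92), and r was -0.28 without B-WT replicates 5 and 1. Removing the extremes of a variable lowers r by itself, and none of the 3 relations was past the test within both genotypes.

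Atp1b1 (ENSMUSG00000026576, chr1:164437109-164458355), the β1 subunit that brings the sodium pump to the basolateral membrane, had the largest fitted difference of the 9 on this scale, at about the size of that of Cftr. It ranged from 40.96 to 128.29 TPM with a median of 102 in B-WT and from 80.17 to 195.22 with a median of 148 in B-KO. Replicates 2, 3 and 5 of B-KO, at 195.22, 185.23 and 177.91 TPM, were above all B-WT lungs, while the other 3 lay within the B-WT range. Means were 96.7 ± 30.0 and 145 ± 47.4 TPM (SD, n = 6 each), and the log2 fold change of 0.59 ± 0.29 (SE) had a limma adjusted p of 0.426 and an exact permutation p of 0.0866. Without B-WT replicate 5 it was 0.36 (unadjusted p = 0.136), without B-WT replicate 4 it was 0.68 (unadjusted p = 0.0431) and without B-KO replicate 4 it was 0.74 (unadjusted p = 0.0215).

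The water pores did not differ past the test. Aqp1 (ENSMUSG00000004655, chr6:55336432-55348555), which in the lung belongs mainly to capillary endothelium and is also carried by red blood cells, ranged from 293.58 to 539.29 TPM with a median of 419 in B-WT and from 273.84 to 599.17 with a median of 425 in B-KO. Its lowest and its highest value were both in B-KO, replicates 1 and 2. The log2 fold change was -0.03 with a 95% interval from -0.50 to 0.45 (limma adjusted p = 0.967). Among the 10 endothelial markers 0 were higher in B-KO and 2 were lower at an unadjusted p of at most 0.05 (0 without B-WT replicate 5), with a median log2 fold change of -0.37 and sums of 2662 to 6490 TPM in B-WT and 2619 to 5733 in B-KO. Of all genes, 63.2% were above 0 and 12.5% were at that threshold in either direction. The 7 erythroid markers were all lower in B-KO by the sign of the estimate, none with an unadjusted p of 0.05 or less, and their sums were 2958 to 96332 and 3523 to 22587 TPM. Their part in the Aqp1 values was not tested.

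Aqp5 (ENSMUSG00000044217, chr15:99590782-99594829), the apical water pore of alveolar type 1 cells, ranged from 60.56 to 362.9 TPM with a median of 207 in B-WT and from 221.4 to 426.29 with a median of 270 in B-KO. All 6 B-KO lungs were above the B-WT median, yet 5 of them fell within the B-WT range. The log2 fold change of 0.48 ± 0.37 (SE, limma adjusted p = 0.564, exact permutation p = 0.281) was 0.14 without B-WT replicate 5. The ratio of Aqp5 to Aqp1 was 0.482 and 0.688 (exact permutation p = 0.294), and it ran from 0.175 in B-WT replicate 5 to 1.56 in B-KO replicate 1. Aqp4 (ENSMUSG00000024411, chr18:15389496-15410982), a basolateral pore of airway epithelium, was low, at 0.84 to 3.91 TPM with a median of 1.65 in B-WT and 1.04 to 6.04 with a median of 2.21 in B-KO. The highest Aqp4 value, in B-KO replicate 3, stood above all others, and the log2 fold change was 0.28 ± 0.30 (SE, limma adjusted p = 0.679). It was 0.07 without that lung and 0.16 without B-WT replicate 5.

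Both chloride genes had higher means in B-KO, and neither passed the adjusted threshold. Cftr (ENSMUSG00000041301, chr6:18170687-18322768), the cAMP-regulated chloride channel, measured 2.4, 0.97, 1.14, 0.41, 0.16 and 0.35 TPM in the B-WT lungs and 2.14, 1.26, 1.62, 1.76, 1.19 and 2.19 TPM in the B-KO lungs, each in order of replicate. Every B-KO lung was above 5 of the 6 B-WT lungs, and the highest value of all was B-WT replicate 1. Means were 0.905 ± 0.825 and 1.69 ± 0.424 TPM (SD, n = 6 each), and the log2 fold change of 0.58 had a 95% interval from 0.06 to 1.11 (limma adjusted p = 0.360). The exact permutation p was 0.0519 on this scale and 0.0476 with a pseudocount of 0.1. At these levels the pseudocount of 1 understates the fold, and with 0.1 the log2 fold change was 1.197 (limma adjusted p = 0.359). The outcome turned on single libraries. Without B-WT replicate 1 the log2 fold change was 0.77 with a limma adjusted p of 0.0456. In that setting 576 of all 14943 genes tested passed the adjusted threshold, against 75 of 15148 with all lungs. The groups then could not overlap, because that lung was the only B-WT lung above any B-KO lung. Without B-WT replicate 5 the log2 fold change was 0.46 (unadjusted p = 0.0739). The unadjusted p was also above 0.05 without B-WT replicate 4 (0.0675) or 6 (0.0709) and without B-KO replicate 1 (0.0621), 4 (0.0508) or 6 (0.0627). Markers of ionocytes, the rare airway cells richest in Cftr, were at or near 0, with Foxi1 at no more than 0.08 TPM and Ascl3 at no more than 0.79 TPM in any lung. The other listed genes of that cell, Atp6v1c2 and Atp6v0d2, summed with them to 9.11 to 36.0 TPM in B-WT and 17.1 to 45.1 in B-KO.

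Slc12a2 (ENSMUSG00000024597, chr18:57878678-57946821), the Na-K-2Cl cotransporter NKCC1, was the steadiest of the 9, with a highest value 1.98 times its lowest. It ranged from 8.68 to 16.06 TPM with a median of 13.5 in B-WT and from 13.87 to 17.17 with a median of 15.3 in B-KO. All 6 B-KO lungs were above the B-WT median and 2, replicates 2 and 3, above every B-WT lung. The log2 fold change was 0.23 ± 0.15 (SE, limma adjusted p = 0.512), or 0.13 without B-WT replicate 5. The exact permutation p of 0.0476 became 0.186 when TPM were rescaled without immunoglobulin genes, which took 0.244% to 15.1% of TPM in B-WT and 0.00198% to 0.0645% in B-KO. The ratio of Cftr to Slc12a2 was 0.0487 in B-WT and 0.107 in B-KO, a log2 difference of 1.14 ± 0.51 (SE, exact permutation p = 0.0584, adjusted over the 6 ratios p = 0.351), and with a pseudocount of 1 on both genes it was 0.35 (exact permutation p = 0.121). Without B-WT replicate 1 the log2 difference was 1.47 (exact permutation p = 0.00649). Over the 12 lungs the pair had r = 0.73 (permutation p = 0.00301, adjusted p = 0.00714) and rho = 0.73 (permutation p = 0.0101, adjusted p = 0.0404), with r = 0.59 without B-WT replicates 5 and 6. Within B-WT r was 0.72 (exact permutation p = 0.122) and within B-KO it was -0.02 (exact permutation p = 0.975).

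B-WT replicate 5 was lower in the epithelial genes than in Aqp1. As a share of the mean of the other 5 B-WT lungs it held 15.2% for Cftr, 20.1% for Scnn1g, 23.0% for Aqp5, 28.7% for Scnn1b, 37.7% for Scnn1a, 38.0% for Atp1b1, 39.2% for Aqp4 and 62.0% for Slc12a2, but 78.6% for Aqp1. The same lung had the lowest sums of the 12 for the 10 alveolar type 1 markers, 1524 TPM against 2927 or more in the other B-WT lungs, and for the 10 alveolar type 2 markers, 3417 TPM against 9239 or more. Its endothelial marker sum of 5206 TPM was within the range of the others. Its median over the tested genes was 6.98 TPM, and the medians of the other libraries were 11.04 to 15.24 TPM. The part of its mitochondrial share and of its cell make-up in the low values was not tested.

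**Figure D4:**
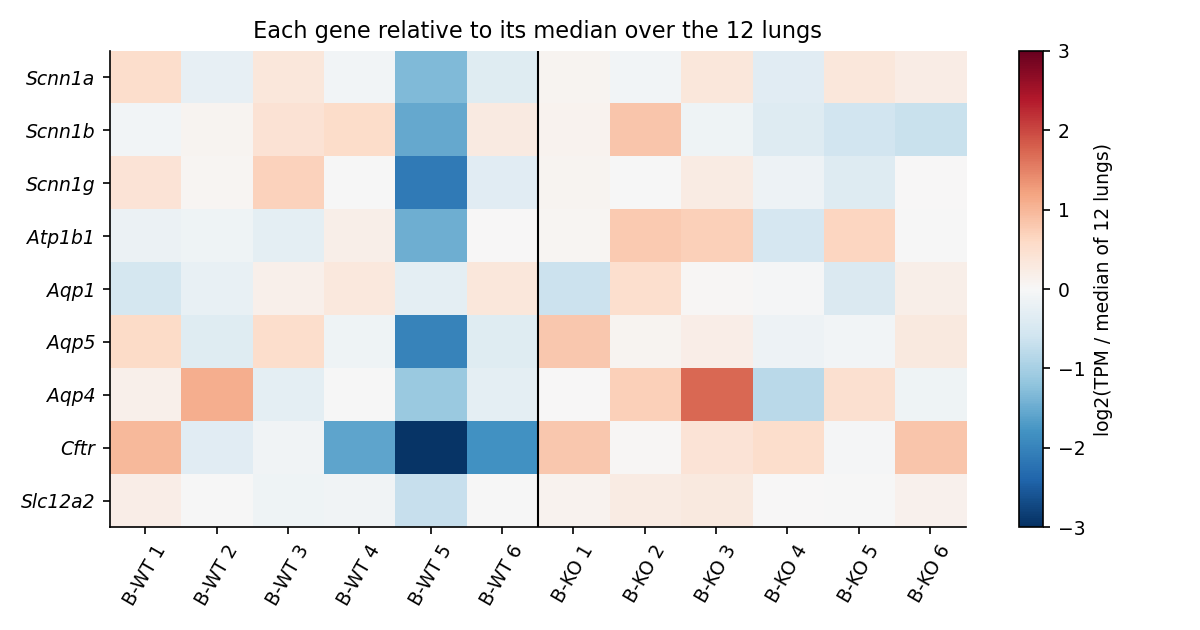
Level of each gene in each lung as log2 of its TPM over the median of the 12 lungs (blue below, red above the median; the line parts the genotypes). B-WT replicate 5 is below the median for all 9 genes and is the lowest lung for 8 of them, while Cftr is also low in B-WT replicates 4 and 6.

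Cell type markers were read beside these genes in the same lungs. Of all genes tested, 63.2% were above 0. At an unadjusted p of at most 0.05 there were 12.5% of all genes in either direction, and 6.83% as higher. Without B-WT replicate 5, 11.2% of all genes were at that threshold in either direction. All 10 alveolar type 2 markers were higher in B-KO, 6 of them with an unadjusted p of 0.05 or less. Their median log2 fold change was 0.85 and their sums were 3417 to 17947 TPM in B-WT and 12513 to 22421 in B-KO. The lowest B-WT sum is replicate 5, and without it 3 of the 10 were at that threshold with a median of 0.53. Of the 10 alveolar type 1 markers 3 were higher and 7 lower, with a median of -0.16 and 1 lower at an unadjusted p of at most 0.05. Without replicate 5 there were 2 higher and 8 lower, with a median of -0.48 and 5 lower at that threshold. Club and secretory markers (2 of 8 higher, median -0.67) and ciliated markers (1 of 8 higher, median -0.46) had none at that threshold. All 8 neutrophil markers and all 8 macrophage markers were higher, with medians of 1.72 and 1.42 and 8 and 5 at an unadjusted p of at most 0.05, or 6 and 2 without B-WT replicate 5. The 4 mesothelial markers tested were all higher at that threshold (median 1.16), and 3 were at it without B-WT replicate 5. Of these markers, Lrrn4 reached no more than 1.0 TPM in any B-WT lung and up to 4.61 TPM in B-KO. It thus met the filter mainly through the group in which it was higher. The 8 pericyte and smooth muscle markers were all lower, 7 at that threshold (median -0.97), or 4 without B-WT replicate 5. Among them Pdgfrb, a pericyte receptor named here because it alone of the 8 passed the adjusted threshold, was at 54.6 ± 15.02 and 20.3 ± 7.88 TPM (log2 fold change -1.44, limma adjusted p = 0.0456, and 0.110 without B-WT replicate 5). The 6 pulmonary vein cardiomyocyte markers were lower too, 1 at that threshold (median -1.36, and 0 at it with a median of -0.94 without B-WT replicate 5), and so were the 6 B cell markers, all 6 at that threshold with and without that lung (median -2.45), of which Cd79a passed the adjusted threshold. The part of these cell types in the values of the 9 genes was not tested.

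Genes that control or work with these transporters were read from 6 further lists. Of 72 genes listed, 59 were tested, 38 were higher in B-KO (64.4% beside 63.2% of all genes) and 21 lower, and none passed the adjusted threshold by limma. At an unadjusted p of at most 0.05 there were 12 higher and 7 lower, 32.2% of the 59 beside 12.5% of all genes. The split was 9 higher and 8 lower with TPM rescaled without immunoglobulin genes, and without B-WT replicate 5 there were 31 above 0 and 28 below, with 8 higher and 6 lower at that threshold (23.7% beside 11.2% of all genes). Without B-WT replicate 1, 6 of the 59 passed the adjusted threshold, and 4 did with array quality weights. Over all genes the calls also rose in these settings, from 75 of 15148 to 576 of 14943 and 318 of 15148.

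Among 12 further subunits and FXYD regulators of the Na,K-ATPase, 6 were higher, beside 63.2% of all genes, and 6 lower. At an unadjusted p of at most 0.05 there were 2 higher and 3 lower, beside 12.5% of all genes in either direction. The smallest p belonged to Atp1b2, a β subunit best known from glia and muscle, at 10.5 ± 5.26 TPM in B-WT and 3.87 ± 1.79 in B-KO (log2 fold change -1.19 ± 0.33 SE, limma adjusted p = 0.164). Atp1b3, the β3 subunit, was at 141 ± 40.5 and 170 ± 19.8 TPM (0.31 ± 0.19 SE, limma adjusted p = 0.497), close in level to Atp1b1. The log2 fold change of Atp1b3 was 0.17 without B-WT replicate 5. So the β1 and β3 estimates were above 0 and that of β2 below it, with none past the test.

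Of 13 proteases and regulators of ENaC, 12 were higher and 1 lower, beside 63.2% of all genes above 0. An unadjusted p of 0.05 was passed by 1, beside 12.5% of all genes in either direction. The split was 7 and 6 without B-WT replicate 5, and 9 and 4 with each library centred on its median. The gene past it was Tmprss4, a membrane serine protease that can cleave and activate ENaC, at 11.6 ± 8.33 and 23.6 ± 6.20 TPM (log2 fold change 1.15 ± 0.36 SE, limma adjusted p = 0.246), and it ranged from 3.11 to 27.67 TPM in B-WT and 16.12 to 31.55 in B-KO. Prss8 (prostasin), another activating protease, was at 32.9 ± 11.3 and 34.4 ± 13.5 TPM (limma adjusted p = 0.913). Sgk1, the kinase that keeps ENaC at the membrane, was at 79.4 ± 39.6 and 123 ± 50.2 TPM (0.61 ± 0.32 SE, limma adjusted p = 0.444). Nedd4l, the ubiquitin ligase that removes ENaC from the membrane and that Sgk1 restrains, was at 24.2 ± 3.76 and 26.5 ± 3.12 TPM (limma adjusted p = 0.694).

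In the hormone and adrenergic list 1 of 7 tested genes was higher and 6 were lower, with a median log2 fold change of -0.43, and 3 lower and 1 higher at an unadjusted p of at most 0.05. Without B-WT replicate 5 there were 3 lower and 0 higher at that threshold. Of all genes, 12.5% were at it in either direction with all lungs and 11.2% without that lung. With all lungs 63.2% of all genes were above 0. Nr3c1, the glucocorticoid receptor, through which steroids raise ENaC and sodium pump expression, ranged from 21.16 to 30.62 TPM in B-WT and from 15.64 to 18.2 in B-KO. Its groups did not overlap, in a table where 1.02% of genes have that pattern. Means were 24.1 ± 3.32 and 17.1 ± 1.19 TPM (log2 fold change -0.47 ± 0.13 SE, limma adjusted p = 0.161), and the value was -0.50 without B-WT replicate 5 (limma adjusted p = 0.1003).

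Of the other aquaporins 3 of 9 were tested, with 2 higher and 1 lower. Aqp11 was at 1.90 ± 0.539 and 3.06 ± 1.02 TPM (log2 fold change 0.47 ± 0.19 SE, limma adjusted p = 0.353), and Aqp3, a water and glycerol pore of basal airway cells, at 2.20 ± 1.62 and 1.54 ± 0.969 TPM (limma adjusted p = 0.684). Of 14 further ion channels and carriers tested, 11 were higher and 3 lower, beside 63.2% of all genes above 0. Below an unadjusted p of 0.05 there were 6 higher, beside 6.83% of all genes, and 0 lower. Slc26a4 (pendrin), an airway chloride and bicarbonate exchanger, led them at 3.56 ± 5.14 and 10.98 ± 4.91 TPM (1.88 ± 0.56 SE, limma adjusted p = 0.216), ranging from 0.13 to 13.57 TPM in B-WT and 3.8 to 15.98 in B-KO. Without B-WT replicate 5, 4 of these were at that threshold. In the tight junction list, 6 of 10 were higher and 4 lower, with 1 in each direction at an unadjusted p of at most 0.05, Cldn4 and Tjp1. Of all genes, 12.5% were at that threshold in either direction. Cldn4, a claudin of the alveolar barrier, was at 5.85 ± 3.74 and 16.7 ± 12.6 TPM (1.24 ± 0.45 SE, limma adjusted p = 0.321). Tjp1, the junction scaffold ZO-1, was at 62.6 ± 6.16 and 47.9 ± 9.99 TPM (-0.40 ± 0.15 SE, limma adjusted p = 0.330), and Cldn18, the main claudin of alveolar type 1 cells, at 120 ± 57.7 and 125 ± 18.2 TPM (0.21 ± 0.30 SE, limma adjusted p = 0.769). The log2 fold change of Cldn18 was -0.04 without B-WT replicate 5.

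**Figure D5:**
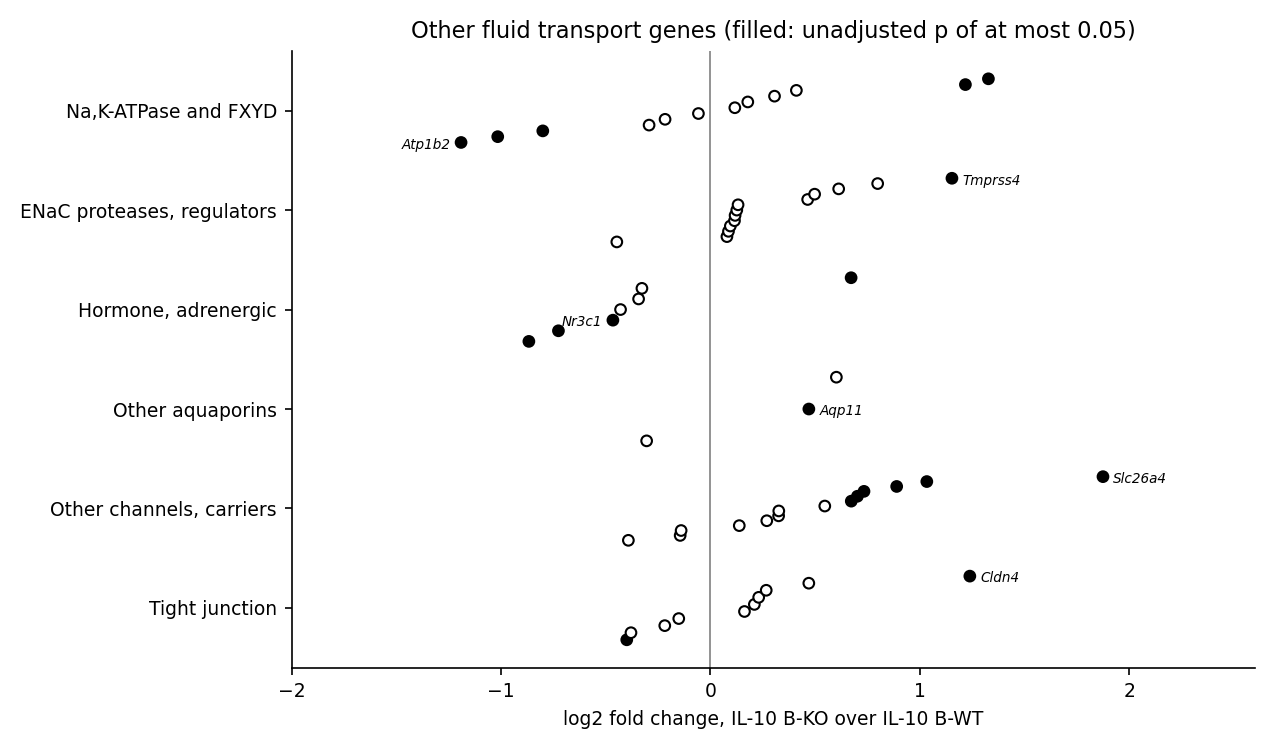
Log2 fold change of B-KO over B-WT for the 59 further fluid transport genes tested, by list. Each point is 1 gene, filled where the unadjusted limma p is at most 0.05 (12 to the right of 0 and 7 to the left), and the gene with the smallest p of each list is named.

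For each of the 9 genes, the genes whose level followed it most closely from lung to lung were found by Pearson's r of log2(TPM + 1) over the 12 libraries after the genotype means were subtracted. They were the 3 highest of all genes tested, so that high values were bound to be found, and they are given as a description. Scnn1a went with Slc6a14 (r = 0.98), Pfkfb4 and Sdc1, Scnn1b with AU021092 (r = 0.98), Rhbg and Dcxr, and Scnn1g with Ripk4 (r = 0.97), Tsen54 and Pts. The ENaC subunits thus shared none of their 3 closest genes. Aqp1 went with Hyal2 (r = 0.94), Ptprb and Prkch, Aqp5 with Nit1 (r = 0.98), Trappc2l and Rbpjl, and Aqp4 with Hipk3 (r = 0.93), Pus7 and Kremen1. Atp1b1 went with Agk (r = 0.97), Ppl and Pcnx4, Cftr with Ska2 (r = 0.96), Slc6a20a and Rad54b, and Slc12a2 with Ttc33 (r = 0.97), Ift52 and Pias2. Without B-WT replicate 5 the r of the 3 genes of Scnn1g was 0.81 to 0.88 and that of the 3 genes of Aqp1 0.90 to 0.94.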

How the data were processed

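Total RNA was extracted from whole lung with TRIzol and libraries were made by an Illumina protocol. The authors deposited TPM per gene, calculated with RSEM and rounded to 2 decimals, with 1 column per mouse and no pooling. The submitters' processing notes also name fastp, HISAT and GRCm38.p5, with no versions. TPM keep no depth, so no count model was fitted. Genes were matched to GENCODE M21 (52133 of 55414).

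The genotypes were compared by limma 3.58.1 under R 4.3.3, with lmFit, eBayes and its trend option. The model held genotype alone and log2(TPM + 1) was its input. It covered the 15148 genes that reached 1 TPM in 6 or more libraries, with Benjamini-Hochberg adjustment. The study's stated fold of at least 1 was read as log2. Single genes and ratios were compared by exact two-sided permutation tests (smallest p possible 0.00216). Relations used 100000 resamples over 12 lungs. The p-values measure the spread between these 12 mice. Steps were tested on simulated data.

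The 9 genes and all lists (6 of fluid transport, 13 of cell type markers) were chosen with earlier results of these data known. Besides the 9, genes of the transport lists were named if they passed the adjusted threshold (none did), if they had the smallest p of their transport list, or as Atp1b3, Sgk1, Nedd4l, Prss8, Nr3c1, Aqp3 and Cldn18. Of the genes and ratios compared, some are not reported here. Cd79a and Il10 were named as checks of the deletion, and the 3 most alike genes of each of the 9 by correlation. Foxi1, Ascl3, Atp6v1c2 and Atp6v0d2 (ionocyte list), Pdgfrb, Lrrn4 and Tjp1 were named after their values were seen. No batch is given in the labels. Alternatives were other pseudocounts, filters and scalings, array quality weights, a replicate block, and leaving out each library.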

Additional observations from a re-analysis of the deposited data

How the results depend on the processing

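The 9 genes stayed at 0 calls past the adjusted threshold under all 20 alternatives run. A call also needs a log2 fold change of 1, and the pseudocount of 1 understates the fold of Cftr at its low level. Without B-WT replicate 1 Cftr had a limma adjusted p of 0.0456 and missed the call only by its log2 fold change of 0.77. Of 178 refitted fold changes of the 9 genes, 159 kept their direction and their side of an unadjusted p of 0.05. Of the rest, 10 reversed, 6 were no longer past it and 3 came past it. The count past it, 1 in the main comparison, was 0 with a mean TPM of at least 5, a filter that removes Cftr and Aqp4, and 2 with array quality weights, and it ran from 0 to 1 with single libraries left out. The number of the 9 that were lower ran from 0 to 3 with single libraries left out, against 2. Of the other transport genes, 29 were past an unadjusted p of 0.05 with array quality weights, against 19, and 14 to 29 with single libraries left out, the most without B-WT replicate 1. Of all genes, 24.9% were past it with array quality weights and 25.1% without B-WT replicate 1, against 12.5%. The weights were smallest for B-WT replicates 5 (0.157) and 1 (0.458). They gave Scnn1g a log2 fold change of -0.19 (from 0.17) and Scnn1b one of -0.52 (unadjusted p = 0.0345). With single libraries left out, the log2 fold changes ran from -0.3779 to 0.0199 for Scnn1b, from -0.1376 to 0.0877 for Aqp1 and from -0.19 to 0.35 for Scnn1g. The log2 difference in the ratio of Scnn1g to Scnn1a ran from -0.2549 to 0.017 and that of Cftr to Slc12a2 from 0.86 to 1.47, with exact permutation p from 0.00649 to 0.108, below 0.05 without B-WT replicate 1 (1.47) and without replicate 3 (1.31, exact permutation p = 0.0346). The exact permutation p of Cftr was 0.0476 with a pseudocount of 0.1 and that of Slc12a2 was 0.186 without immunoglobulin genes. The causes were not tested.

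Centring each library on its median moved the median of all genes from 0.10 to -0.01. The 9 genes kept their directions, with 0.48 for Atp1b1 (unadjusted p = 0.0547) and 0.48 for Cftr (unadjusted p = 0.0240). Calls over all genes, 75 in the main comparison, ranged from 6 with no filter to 318 with array quality weights, and from 15 to 576 with single libraries left out. They were 28 without immunoglobulin genes, 39 with quantile normalization and 36 with median centring. The same replicate numbers did not pair the lungs, with correlations of deviations from the genotype means from -0.29 to 0.05, and no lung correlated best with its own number. With the replicate block 1 of the 9 passed an unadjusted p of 0.05, 16 other transport genes did, and 45 genes were called in all. The depth behind each TPM is unknown, which is a limit for all 9 genes, of which Cftr and Aqp4 had the lowest mean TPM.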
